A study of Mus musculus with 59 samples.

Results

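A set of 10 genes of the extracellular matrix were followed here, chosen by their symbols, which had to be listed in all 4 tables of normalised expression that were deposited: Sparc, Fn1, Postn, Tnc, Thbs1, Timp1, Timp3, Lox, Bgn and Dcn. These are 10 of the 24972 gene symbols in each table. The series holds 59 RNA-seq libraries of mice and mouse cells in which ATP citrate lyase (ACLY), the enzyme that makes cytosolic acetyl-CoA from citrate, was inhibited or silenced. Hydroxycitrate (HC) is a competitive ACLY inhibitor that was given in the diet, SB-204990 (SB) and bempedoic acid (Bemp) are other ACLY inhibitors, and siAcly is an siRNA against the Acly transcript.

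The liver and the soleus, a slow-twitch muscle of the calf, came from wild-type male C57BL/6 mice of 41 weeks of age that had eaten a standard diet (STD) or the same diet with HC at 7.5 g per kg for 21 weeks, with 5 mice per group and tissue, after a fast of 16 hours. Gastrocnemius, the large fast-twitch calf muscle, came from wild-type male C57BL/6 mice of 6 ± 1 months that were uninjured or had been injected with 10 µM cardiotoxin (CTX), a venom peptide that destroys muscle fibres and starts regeneration, and were then fed STD (CTX) or HC (CTX-HC) until 2 or 30 days post injury, with 3 mice per group. No uninjured gastrocnemius group received HC. AML12, a mouse hepatocyte line, was given control siRNA (siC) or siAcly and, a day later, one of the inhibitors or none (Ut). Exposure lasted 16 h, and the doses were 1 mM for HC, 10 µM for SB and 30 µM for Bemp, with 3 libraries in each of the 8 groups, all in a medium with dexamethasone. Whether the 3 AML12 libraries of a group are separate cultures is not given, so their p-values measure the spread between these libraries only.

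Matricellular proteins such as SPARC, thrombospondin 1, tenascin C and periostin are secreted into the matrix and bind both matrix fibres and cell receptors without themselves building the scaffold. They are low in much resting adult tissue and are made in quantity where tissue is wounded or growing. Fibronectin gives the provisional matrix of a wound, lysyl oxidase cross-links collagen and elastin, the TIMP proteins inhibit the metalloproteinases that cut the matrix, and the small proteoglycans biglycan and decorin bind collagen fibrils and TGF-beta.

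The estimated depth was 16.0 to 34.9 M reads per library in gastrocnemius, 8.93 to 11.2 in soleus, 7.69 to 13.1 in liver and 7.31 to 16.3 in AML12 cells. On the CPM scale, with the deposited values of each library scaled to a sum of 1000000, muscle fibre genes summed to 58388 to 123722 in gastrocnemius and 91660 to 112676 in soleus, and hepatocyte genes to 81519 to 119987 in liver but to 1003 to 4000 in AML12 cells, where all 8 were nevertheless detected in the untreated libraries. The normalised value of Acly was 2576 to 3860 in the siC libraries and 215 to 599 in the siAcly libraries, except that the library labelled siC Bemp replicate 1 had 404. Cyp1a1, a gene induced by foreign chemicals, was 917 in the library labelled siC Ut replicate 3, in the range of the other libraries labelled Bemp (678 to 1255), and 236 in the library labelled siC Bemp replicate 1. These labels were kept. In gastrocnemius the first principal component carried 51.7% of the variance, and 3 libraries that lay away from their groups on it are called those that stood apart. CTX 30 days replicate 1 lay at 1.53 against -76.7 and -68.0 in its group, CTX-HC 30 days replicate 3 at 71.5 against -71.9 and -78.7, and CTX 2 days replicate 3 at -16.3 against 33.6 and 73.4. All libraries were kept, and counts are also given without the first 2 or all 3 of these. The choice was made after the data were seen and from the expression values themselves, which lowers the spread within groups by its construction. Uninjured replicate 2 (-71.4 against -25.3 and -16.0) and CTX-HC 2 days replicate 3 (44.0 against 111 and 89.1) also lay away from their groups. They were left out only singly.

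Where the members lie in the genome is given for mm10, with the gene model of GENCODE. The genes of the secreted adhesion proteins are Sparc on chromosome 11 (55394500 to 55423183, minus strand, 10 exons in the longest coding transcript), Fn1 on chromosome 1 (71585520 to 71653200, minus strand, 46 exons), Postn on chromosome 3 (54361109 to 54391037, plus strand, 22 exons), Tnc on chromosome 4 (63959785 to 64047015, minus strand, 26 exons) and Thbs1 on chromosome 2 (118111876 to 118127133, plus strand, 22 exons). Timp1 on chromosome X (20870166 to 20874735, plus strand) lies inside Syn1, and Timp3 on chromosome 10 (86300372 to 86349506, plus strand) lies inside Syn3, in both cases on the strand opposite to the synapsin gene. Bgn is on chromosome X (73483602 to 73495933) and Dcn on chromosome 10 (97479609 to 97518143), both on the plus strand. The kits mark the strand, but whether the counting used it is not given in the sources used here, so reads of Syn1 or Syn3 across the TIMP genes cannot be told apart from reads of Timp1 and Timp3.

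The promoters of the pair of TIMP genes are shown because these inhibitors of the same family lay on opposite sides of uninjured muscle after injury. Each window runs from 250 bases before to 50 bases after a start of the gene in RefSeq (build GRCm38.p6), 5′ to 3′ on the plus strand. The windows lie at chrX:20869916-20870215 for Timp1 and chr10:86300162-86300461 for Timp3. For Timp3 this RefSeq start differs from the GENCODE start given above. Capitals mark the GC box, GGGCGG, which both windows hold only on the reverse strand (printed as its reverse complement, CCGCCC).

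Timp1: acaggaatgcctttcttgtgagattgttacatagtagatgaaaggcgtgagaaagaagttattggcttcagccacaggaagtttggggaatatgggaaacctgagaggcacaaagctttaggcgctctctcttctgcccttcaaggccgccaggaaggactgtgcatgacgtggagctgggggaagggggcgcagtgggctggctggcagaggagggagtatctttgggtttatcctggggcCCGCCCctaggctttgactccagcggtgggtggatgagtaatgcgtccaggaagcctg
Timp3: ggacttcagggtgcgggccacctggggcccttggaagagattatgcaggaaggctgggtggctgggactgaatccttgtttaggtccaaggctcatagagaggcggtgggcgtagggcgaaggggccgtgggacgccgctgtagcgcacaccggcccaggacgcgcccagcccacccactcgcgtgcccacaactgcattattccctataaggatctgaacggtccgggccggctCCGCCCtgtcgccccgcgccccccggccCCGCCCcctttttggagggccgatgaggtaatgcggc

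The GC box was found 1 time in the Timp1 window and 2 times in the Timp3 window, and 35.7% of the 32851 promoter windows in the table hold it on either strand. An AP-1 site, TGANTCA, is in neither window, against 7.81% of all windows, and the TATA box TATAAA is in neither, against 13.6%. Windows were listed for 6 of the 10 members. Of the others, Bgn had 3 GC boxes on the reverse strand, Tnc had 1 GC box and 1 TATA box in each of its windows, Postn had 1 TATA box in one of its windows, and Sparc had none of the 3 motifs.

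Levels of the members in untreated tissue and cells are compared on the CPM scale per kb of the longest coding transcript, so that genes of unequal length can be set side by side. The 4 tables were normalised separately and per the labels the liver and soleus libraries were made with rRNA depletion and the others with an mRNA kit, while the study's methods name the mRNA kit alone, so no test was made between tissues. Fibronectin was the highest member in both liver and AML12 cells. Its level was 231 ± 19.9 (SD, n = 5) in STD liver and 253 ± 67.4 (SD, n = 3) in untreated siC cells, against 5.79 ± 2.55 (n = 3) in uninjured gastrocnemius and 10.9 ± 3.60 (n = 5) in STD soleus. The liver is the main source of plasma fibronectin.

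In STD soleus the order was led by Dcn (113 ± 13.6) and Sparc (95.5 ± 11.7), whose libraries overlapped, followed by Timp3 (45.8 ± 5.32) and Bgn (42.2 ± 10.4), which overlapped as well. Fn1 and Postn (8.87 ± 6.27), Postn and Thbs1 (4.47 ± 1.76), Thbs1 and Lox (2.37 ± 0.548), and Lox and Timp1 (1.43 ± 0.709) were neighbours with overlapping libraries. Tnc was lowest at 0.194 ± 0.160, and its highest library (0.444) was under the lowest of Timp1 (0.472). Uninjured gastrocnemius had Sparc first (52.98 ± 32.9), then Timp3 (24.4 ± 1.68), Dcn (23.2 ± 8.10) and Bgn (19.2 ± 6.46), which overlapped with one another. Below Fn1 came Thbs1 (3.90 ± 2.59), Postn (2.66 ± 2.02), Tnc (1.57 ± 1.26), Lox (1.40 ± 0.713) and Timp1 (1.297 ± 0.968), each overlapping with the next.

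In STD liver the 6 highest members did not overlap with their neighbours. Below Fn1 came Dcn (69.1 ± 10.8), Bgn (40.2 ± 3.98), Sparc (14.3 ± 2.32), Timp3 (5.89 ± 0.643) and Postn (1.49 ± 0.486). Thbs1 (0.197 ± 0.0976), Tnc (0.121 ± 0.0581), Lox (0.0572 ± 0.0306) and Timp1 (0.0545 ± 0.0757) were near the lower limit of the data and overlapped with their neighbours.

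The AML12 line carried a different set of members. Fn1 was followed by Sparc (133 ± 15.01) and by Timp1 (98.0 ± 7.17), 3 members that did not overlap. The Timp1 level in every untreated siC library (90.9 to 105) was above every level of STD liver (0 to 0.154). Tnc (1.93 ± 0.909), Postn (0.291 ± 0.158) and Thbs1 (0.258 ± 0.146) were low. Dcn, Bgn and Timp3 reached 10 in 0, 0 and 1 of the 24 libraries, and Lox was at 0 in all 24. The fibroblast markers summed to at most 0.926 CPM in the untreated siC cells, with Pdgfra, Dpt, Pi16, Cd34, Dpp4, Mfap5 and Lum at 0, against 109 to 130 in STD liver. In bulk tissue fewer cells of a type and less RNA per cell cannot be told apart.

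**Figure D1:**
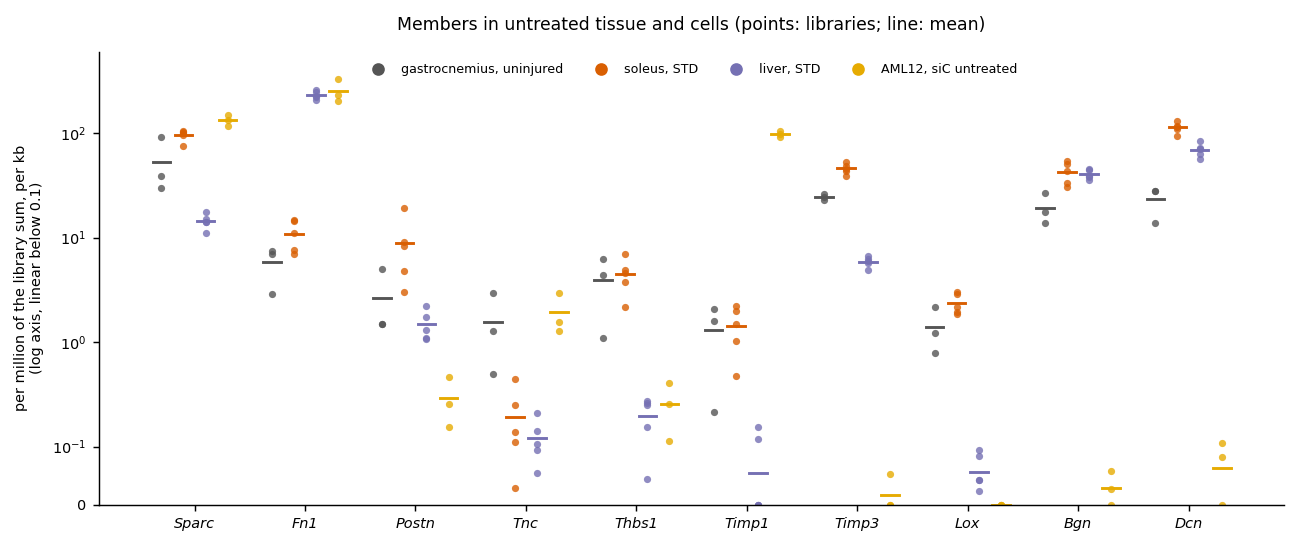
Level of each member in CPM per kb of transcript (y axis, log scale that is linear below 0.1) in untreated tissue and cells, with 1 point per library and a line at the mean. Fn1 stands at 231 in liver and 253 in AML12 cells, Timp1 at 98.0 in AML12 cells against 0.0545 in liver, and Lox at 0 in AML12 cells.

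The comparison of injured with uninjured gastrocnemius asks how these genes respond to cardiotoxin. Values from here on are the deposited normalised values, scaled by the authors within one table, and differences are on the log2(value + 1) scale. The library sums of these values were 25.1 to 30.2 M in uninjured muscle. At 2 days they were 21.3 to 28.7 M on CTX and 16.6 to 21.9 M on CTX-HC. Which libraries overlap can therefore differ on the CPM scale. At 2 days after injury on STD, 4 members had every injured library above every uninjured one (Fn1, Timp1, Lox and Bgn) and 2 had every injured library below (Timp3 and Dcn). That is 6 of 10 members against 29.1% of the 14033 genes tested. No member passed an adjusted p of 0.05 by limma, nor did any gene (0% of all genes, 0 of 14033), while 5 members and 2095 genes had an unadjusted p under 0.05. Without the 3 libraries that stood apart, 3 members passed, Lox and Bgn higher and Timp3 lower, against 3.73% of all genes. The CTX library left out, replicate 3, was the nearest of its group to uninjured muscle for Lox (544), Bgn (1698) and Timp3 (2403).

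Fibronectin was 1550, 718 and 1561 in uninjured muscle and 3816, 4637 and 2607 at 2 days on STD. The groups did not overlap, and the difference was 1.58 (standard error 0.80, limma adjusted p = 0.364). On CTX-HC the 2-day values were 10576, 14036 and 2052, so that replicate 3 was below each library of the CTX group while the other two were above it. The difference from uninjured muscle was 2.48 (standard error 0.80, adjusted p = 0.0598), and Fn1 passed without the 2 day-30 libraries that stood apart.

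Sparc, which codes for a collagen-binding protein also called osteonectin, did not separate the groups. Uninjured muscle had 2366, 2054 and 5226, CTX at 2 days 3854, 4989 and 3155, and CTX-HC at 2 days 6719, 7525 and 3202. The uninjured replicate 3 lay above all CTX libraries, and the difference at 2 days was 0.42 on CTX (standard error 0.50, adjusted p = 0.674) and 0.89 on CTX-HC (standard error 0.50, adjusted p = 0.210).

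Thbs1, the gene of a secreted activator of latent TGF-beta, had the highest single value of any member but Fn1 among the injured libraries. It was 685, 194 and 908 in uninjured muscle, 3944, 3829 and 677 at 2 days on CTX, and 12026, 4496 and 2105 at 2 days on CTX-HC. CTX replicate 3 was inside the uninjured range, and all 3 CTX-HC libraries were above it. CTX-HC differed from uninjured muscle by 3.29 (standard error 0.88, adjusted p = 0.0389).

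Lox, which codes for lysyl oxidase, changed in the same comparison by 3.37 (standard error 0.59, adjusted p = 0.0128). Its values were 155, 112 and 259 in uninjured muscle, 861, 1230 and 544 on CTX and 2379, 2978 and 714 on CTX-HC at 2 days. Both injured groups lay wholly above the uninjured libraries. Lox and Thbs1 were the 2 of 10 members that passed for CTX-HC at 2 days against uninjured muscle, where 9.93% of all genes passed, and 8 of 10 members did not overlap against 50.9% of all genes. Lox alone passed (with 1.65% of all genes) when a covariate was added for 2 libraries whose numbers lie far from the rest, uninjured replicate 2 and CTX 30 days replicate 2. No member passed without CTX-HC 2 days replicate 1, uninjured replicate 1 or uninjured replicate 2, where 0.278%, 0.463% and 0.235% of all genes passed. Only Lox passed without uninjured replicate 3 (2.79% of all genes) or CTX-HC 2 days replicate 2 (1.19%), and 4 members passed without CTX-HC 2 days replicate 3 (15.3%). With only the 2 groups compared, 8 members passed, with 30.6% of all genes.

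Without the 2 day-30 libraries that stood apart, 8 of 10 members passed for CTX-HC at 2 days against uninjured muscle, against 31.8% of all genes. Fn1, Postn, Tnc, Thbs1, Timp1, Lox and Bgn were higher and Timp3 was lower. Sparc (difference 0.89, adjusted p = 0.106) and Dcn (-0.33, adjusted p = 0.640) did not pass.

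Periostin and tenascin C, adhesion-modulating proteins of regenerating tissue, were 126, 145 and 401 (Postn) and 239, 105 and 526 (Tnc) in uninjured muscle. At 2 days Postn was 391, 455 and 188 on CTX and 454, 1116 and 510 on CTX-HC. Tnc was 390, 1130 and 365 on CTX and 959, 2274 and 902 on CTX-HC. For both genes the CTX libraries overlapped with uninjured muscle and the CTX-HC libraries were all above it.

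Timp1 and Timp3 lay on opposite sides of uninjured muscle at 2 days after injury, and neither passed against it over all libraries. Timp1 was 37.4, 5.72 and 46.1 in uninjured muscle, 119, 129 and 68.1 on CTX and 190, 188 and 121 on CTX-HC at 2 days, and both injured groups were above all uninjured libraries. Timp3, whose protein binds to the matrix itself, was 2840, 3706 and 2900 in uninjured muscle, 966, 1265 and 2403 on CTX and 1517, 1522 and 1323 on CTX-HC, and both injured groups were below all uninjured libraries. The Timp1 difference was 2.16 on CTX (standard error 0.90, adjusted p = 0.314) and 2.83 on CTX-HC (standard error 0.90, adjusted p = 0.0592). The Timp3 difference was -1.11 on CTX-HC (standard error 0.36, adjusted p = 0.0598). On CTX it was -1.13 (standard error 0.36, adjusted p = 0.267), and -1.498 (adjusted p = 0.0218) without the 3 libraries that stood apart.

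The proteoglycan genes also lay on opposite sides of uninjured muscle on CTX. Bgn was 1116, 1012 and 1601 in uninjured muscle, 3285, 4040 and 1698 on CTX and 4256, 5295 and 2164 on CTX-HC, both above the uninjured range. In CPM the CTX libraries of Bgn (59.2 to 190) overlapped with uninjured muscle (33.5 to 63.8). Dcn was 647, 1473 and 1234 in uninjured muscle and 550, 465 and 375 on CTX, which was below it. On CTX-HC, Dcn was 1361, 1262 and 342, with replicates 1 and 2 inside the uninjured range and replicate 3 under it. In CPM its CTX-HC libraries ran from 15.6 to 82.2, beyond the uninjured range of 24.4 to 49.2 on both sides.

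**Figure D2:**
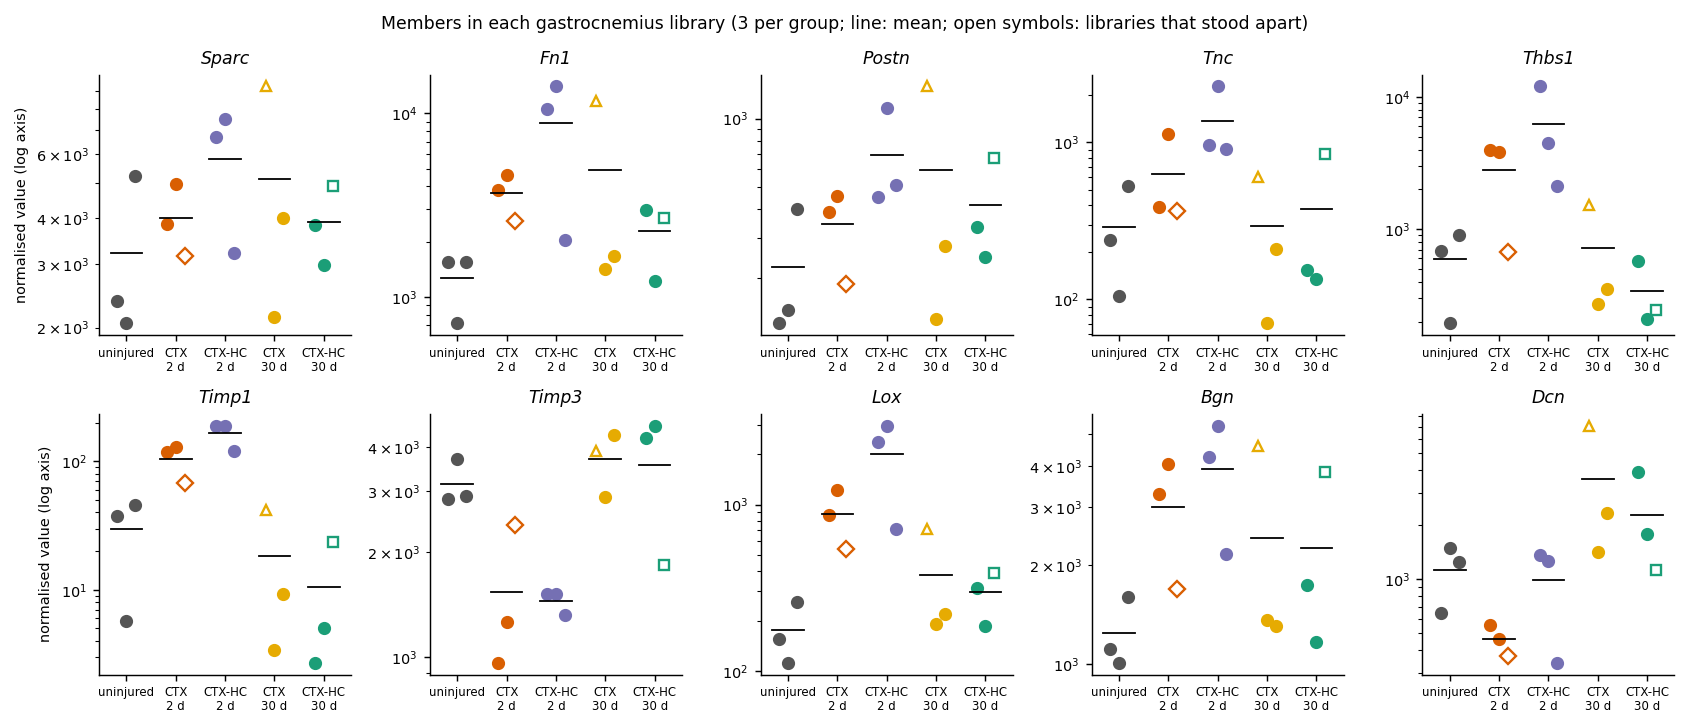
Normalised value of each member (y axis, log scale) in the 15 gastrocnemius libraries by group, with the mean as a line and open symbols for the 3 libraries that stood apart. Timp3 lies below and Timp1 above uninjured muscle at 2 days, and the open triangle (CTX 30 days replicate 1) is the highest day-30 library for 8 members.

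Whether HC modified the response at 2 days was tested by CTX-HC against CTX. All 10 members had a positive difference, with a median of 0.89 against 0.02 over all genes. No member passed (0% of all genes, with 1005 of 14033 at an unadjusted p under 0.05). None had groups that did not overlap in these values (13.5% of all genes did not overlap). On the CPM scale Postn did not overlap, at 6.57 to 21.4 on CTX and 23.3 to 58.8 on CTX-HC, while the other members did. None passed without the 3 libraries that stood apart, where again 0% of all genes passed. The 3 members of highest mean were Fn1, with a difference of 0.91 (standard error 0.80, adjusted p = 0.713), Sparc with 0.47 (standard error 0.50, adjusted p = 0.752) and Thbs1 with 1.16 (standard error 0.88, adjusted p = 0.691). Intervals were wide: the 95% interval for Fn1 ran from -0.81 to 2.63. With 3 mice against 3 an exact permutation test cannot go below p = 0.10, and the smallest value over the 10 members was 0.2. The 10 members share the same 6 libraries and are not independent.

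Sums of markers of other cells also varied between these groups, not always in the direction of the members. These sums are in CPM, unlike the member values, and were not tested. Between CTX and CTX-HC all their ranges overlapped except those of the muscle fibre genes. The 8 macrophage markers summed to 28.5 to 144 CPM in uninjured muscle, 72.96 to 457 at 2 days on CTX and 284 to 1676 on CTX-HC, and the 8 fibroblast markers to 48.2 to 86.6, 34.9 to 80.6 and 62.2 to 226. The 6 neutrophil markers summed to 0.230 to 1.53, 0.918 to 18.4 and 14.7 to 73.5 in the same order, with S100a9, Ly6g and Retnlg at 0 in uninjured muscle. The 6 tendon markers summed to 23.4 to 80.6, 108 to 122 and 83.8 to 259, and the 7 myogenic markers to 133 to 158, 182 to 537 and 182 to 308. The 6 endothelial markers summed to 188 to 398, 229 to 301 and 208 to 458, ranges that overlapped. The 6 smooth muscle markers summed to 288 to 309, 187 to 271 and 202 to 465. The sum of the 10 muscle fibre genes was 96126 to 113949 in uninjured muscle, 79840 to 91836 on CTX and 58388 to 68715 on CTX-HC, 3 ranges that did not overlap. CTX-HC replicate 3, the lowest of its group for 9 of the 10 members (all but Postn), was also the lowest of its group in the macrophage and fibroblast sums. The part of cell composition in the members' values was not tested.

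At 30 days no member separated from uninjured muscle in the normalised values. No member passed in CTX or CTX-HC at 30 days against uninjured muscle or against each other (0% of all genes in each). No member had groups that did not overlap in these values. Unadjusted p-values under 0.05 were reached by 437, 388 and 106 of 14033 genes. The CTX means of Dcn, Sparc and Fn1 were carried by replicate 1. Dcn, named here after its values were seen, was 7091, 1413 and 2317 on CTX and 3904, 1781 and 1112 on CTX-HC. In CPM it was 24.4 to 49.2 in uninjured muscle, 49.4 to 305 on CTX and 54.1 to 141 on CTX-HC. Neither injured group overlapped with uninjured muscle for Dcn on that scale. Sparc was 9245, 2139 and 4000 on CTX and 3835, 2973 and 4909 on CTX-HC, and Fn1 was 11728, 1424 and 1669 on CTX and 2974, 1227 and 2693 on CTX-HC.

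Against uninjured muscle the differences on CTX were 0.55 for Sparc (standard error 0.50), 1.33 for Fn1 (standard error 0.80) and 0.22 for Timp3 (standard error 0.36), and on CTX-HC 0.38, 0.83 and 0.08 with the same standard errors, all with an adjusted p of 1.00.

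CTX replicate 1 was far above the other libraries of its group for Fn1, Dcn and Sparc, and its fibroblast markers summed to 330 CPM and its tendon markers to 390, against 70.3 to 75.2 and 55.9 to 103.97 in the others of its group. Without it the CTX difference from uninjured muscle for Sparc turned from 0.55 to -0.01. Between CTX-HC and CTX at 30 days, Fn1 was -0.50 (standard error 0.80, adjusted p = 1.00), Sparc -0.17 (standard error 0.50) and Timp3 -0.14 (standard error 0.36), and all 3 changed sign when a library that stood apart was left out. For no member did the test of a difference in the HC effect between day 30 and day 2 pass (0% of all genes passed this interaction by limma, with 355 at an unadjusted p under 0.05), with the largest absolute difference at Thbs1, -1.92 (standard error 1.24, adjusted p = 0.999).

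Directly between the time points, the 3 members that passed on CTX-HC were all lower at 30 days, against 9.74% of all genes. Thbs1 went from the values above to 574, 211 and 245, a difference of -3.96 (standard error 0.88, adjusted p = 0.0199). Timp1 went to 2.70, 5.01 and 23.6, a difference of -4.32 (standard error 0.90, adjusted p = 0.0161), and Lox to 316, 186 and 389, a difference of -2.59 (standard error 0.59, adjusted p = 0.0221). In all 3 cases every 30-day library was below every 2-day library. No member passed when CTX-HC 2 days replicate 1 or 2 was left out (1.14% and 2.57% of all genes passed), when CTX-HC 30 days replicate 1 or 2 was left out (1.3% and 1.58%), or with only the 2 groups compared (0.164%). Without CTX-HC 30 days replicate 3, 5 members and 36.2% of all genes passed. Timp3 ran the other way, to 4258, 4613 and 1838, and the difference of 1.19 (standard error 0.36, adjusted p = 0.0514) did not pass. Without the 2 libraries that stood apart, 7 members passed, against 37.6% of all genes, with Tnc, Thbs1, Timp1, Lox and Bgn lower and Timp3 and Dcn higher. In all libraries, 5 of 10 members did not overlap, against 24.7% of all genes.

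On the CTX groups the same comparison gave no member that passed (0.257% of all genes passed). Sparc differed by 0.13 (standard error 0.50, adjusted p = 0.906), Fn1 by -0.24 (standard error 0.80, adjusted p = 0.889) and Timp3 by 1.35 (standard error 0.36, adjusted p = 0.109). Timp1 at 41.8, 3.37 and 9.35 was below all 2-day libraries, and Timp3 at 3902, 2881 and 4329 and Dcn were above them, so 3 of 10 members did not overlap against 26.7% of all genes. Without the 2 libraries that stood apart, Timp1 was lower and Timp3 higher (2 of 10, with 5.79% of all genes), and without all 3, Thbs1, Timp1, Lox and Bgn were lower and Timp3 higher (5 of 10, with 11.2% of all genes). The direction of Sparc turned to -0.43 without CTX 30 days replicate 1.

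**Figure D3:**
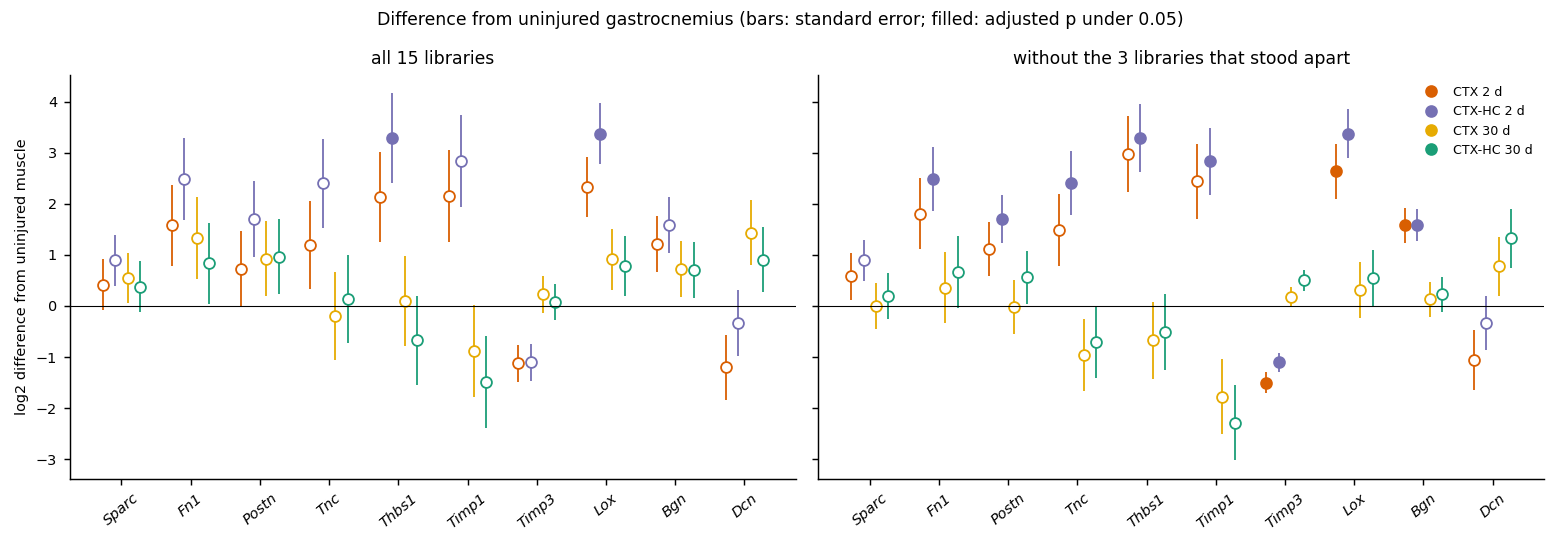
Difference of each injured group from uninjured gastrocnemius on the log2(value + 1) scale (y axis) for each member, with standard errors as bars and filled points where the adjusted p is under 0.05, for all 15 libraries (left) and without the 3 that stood apart (right). Only Thbs1 (3.29) and Lox (3.37) on CTX-HC at 2 days are filled on the left, and 8 members of that group are filled on the right. The 4 comparisons share the uninjured libraries.

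Other genes of the same matrix system were counted for CTX-HC at 2 days against uninjured muscle. In this comparison 5.34% of all genes rose. Of 19 other matricellular genes, 4 rose and none fell (median difference 1.05, against 0.02 over all genes). The largest rises were Wisp2 (3.76) and Tgfbi (3.43), which code for a CCN family protein and for a TGF-beta-induced adhesion protein. Among the 16 cross-linking and collagen-maturing genes 3 rose and none fell (median 1.17), led by the lysyl oxidase relative Loxl3 (2.93) and the prolyl hydroxylase P3h1 (1.19). Of 18 proteases tested 2 rose, Mmp13 (2.80) and Mmp19 (2.47), and all 18 had a positive difference (median 1.51). Of 16 elastic fibre and basement membrane glycoproteins 2 rose, Ltbp2 (4.66) and Emilin2 (3.34), and of 10 other proteoglycans tested 1 rose, Vcan (2.93). Of 22 genes of matrix receptors and of TGF-beta ligands and receptors 4 rose, the largest being the syndecan gene Sdc3 (2.20) and Itga5 (1.83), which codes for a part of the fibronectin receptor. The counts in the opposite direction at 30 days against 2 days on CTX-HC were 3, 3, 3, 1, 1 and 4 lower for these 6 lists in the same order, where 5.54% of all genes were lower, and 1 matricellular gene, Smoc2, was higher (1.25), where 4.2% of all genes were. In lists of 10 to 22 genes each of these shares comes to about 1 gene.

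The genes whose pattern over the 15 gastrocnemius libraries was most like each member's were found by Pearson's r on the log2 scale, as a description over libraries that share the 3 that stood apart. For Lox these were Loxl3 (0.98), Gas2l1 (0.97) and Chst14 (0.97). For Bgn they were the collagen genes Col5a2 (0.98), Col16a1 (0.97) and Col5a1 (0.97). For Dcn they were Ogn (0.98), another small proteoglycan gene, Ccl11 (0.96) and Naalad2 (0.96). For Fn1 they were Rcn3 (0.96), Mrc2 (0.95) and Olfml3 (0.95), and for Postn they were Col8a1 (0.96), Mrc2 (0.92) and Mxra7 (0.92). Sparc was closest to Nhsl2, Endod1 and Mxra7 (each 0.96), and Tnc to Sipa1l3 (0.95), 4930402H24Rik (0.95) and Trim25 (0.95). Timp1 was closest to Cd68 (0.97), a macrophage marker, Hk3 (0.96) and Tlr13 (0.96), and Thbs1 to Fabp5 (0.98), Clec4d (0.97) and Ccl9 (0.96). Timp3 was closest to Asb15 (0.94), Abca8b (0.94) and Naa60 (0.93).

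In soleus, where no injury was made, the comparison asks what 21 weeks of HC did to these genes. Sparc was the 1 member whose groups did not overlap, against 1.1% of all genes. It was 1765, 2252, 2172, 2256 and 2187 on STD and 2690, 2677, 2677, 3274 and 3690 on HC. All HC mice were above all STD mice, and the difference was 0.49 (standard error 0.11, 95% interval 0.26 to 0.72). It did not pass over all genes (limma adjusted p = 0.654), where 0% of all genes passed and 609 of 12067 had an unadjusted p under 0.05. The exact two-sided permutation test gave p = 0.00794, the smallest that 5 mice against 5 can give, for 1 of 40 such values computed over 10 members and 4 comparisons. The 6 Schwann cell and nerve markers, among them myelin genes, summed to 136 to 189 CPM on STD and 192 to 765 on HC and so also did not overlap, with the highest sums in HC replicates 5 and 1 (765 and 464). The part of these cells in the Sparc values was not tested.

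The remaining soleus members overlapped between diets, although all 10 had a positive difference (median 0.45, against -0.01 over all genes). Timp3 differed by 0.03 (standard error 0.19, adjusted p = 0.999) and Dcn by 0.21 (standard error 0.18, adjusted p = 0.999). Postn was 98.9, 252, 275, 585 and 152 on STD and 186, 248, 208, 335 and 1305 on HC, with HC replicate 5 far above the rest. The same mouse was also the highest of all 10 for Fn1 (2714), Tnc (58.1), Lox (280), Bgn (1576), Dcn (2901) and Sparc. Thbs1 was 130, 252, 389, 270 and 218 on STD and 142, 599, 466, 1030 and 328 on HC, and its highest mouse was HC replicate 4. Timp1 was near the lower limit of the data, at 4.25 to 18.7 on STD and 6.21 to 17.4 on HC.

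In the liver, 7 members passed the filter on low values, and Tnc, Timp1 and Lox did not. None of the 7 passed (0% of all genes, with 488 of 11497 at an unadjusted p under 0.05), and none had groups that did not overlap (0.618% of all genes). The muscle fibre markers summed to 106 CPM in the highest STD liver, against a median of 1.25 in its group and at most 2.46 on HC. The part of muscle RNA in the members' values was not tested. Fn1 was 16981, 17287, 19764, 19479 and 14967 on STD and 19791, 9584, 18856, 15853 and 21224 on HC. The diets overlapped, and the difference was -0.10 (standard error 0.19, adjusted p = 0.995), with HC replicate 2 the lowest of the 10 mice. Without that mouse it was 0.10.

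Bgn was 864, 992, 843, 970 and 800 on STD and 939, 967, 1227, 1585 and 1235 on HC. Of the HC mice 3 were above all STD mice, and the difference was 0.39 (standard error 0.13, 95% interval 0.10 to 0.68, adjusted p = 0.995). The exact permutation p was 0.0476. This value and that for Postn below are among the 40 such values computed, and are not adjusted for their number. Dcn was 1015, 1359, 957, 1151 and 1092 on STD and 1050, 1213, 1297, 1758 and 1386 on HC, with a difference of 0.26 (standard error 0.13, adjusted p = 0.995). Postn, chosen for description after its values were seen, was 31.9, 38.6, 34.2, 50.5 and 62.6 on STD and 46.4, 68.5, 106.98, 132 and 53.6 on HC, a difference of 0.82 (standard error 0.28, adjusted p = 0.995, exact permutation p = 0.0397).

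HC replicate 4 was the highest liver for Sparc (633), Postn, Tnc (19.5), Thbs1 (53.4), Timp1 (4.85), Timp3 (423), Lox (8.45), Bgn and Dcn, which is 9 of the 10 members. Its 7 stellate cell markers summed to 236 CPM and its 5 bile duct markers to 139, against 89.5 to 167 and 33.4 to 82.6 in the other 9 livers. Without it the Bgn difference was 0.28 and the Postn difference 0.62. Of the other lists, all 13 matricellular genes tested had a positive difference in liver (median 0.42, against -0.01 over all genes), as did all 7 proteoglycans (median 0.40) and all 7 proteases (median 0.20). Positive differences were found in 7 of 12 elastic fibre and basement membrane glycoproteins (median 0.15), 7 of 13 cross-linking genes (median 0.08) and 8 of 20 genes of the receptor and TGF-beta list (median -0.02). No gene of these lists passed. These liver medians include HC replicate 4. In soleus, differences were positive in all 18 matricellular genes tested (median 0.28, against -0.01 over all genes), all 15 glycoproteins (0.28) and all 14 cross-linking genes (0.26). They were also positive in all 11 proteases (0.22), 7 of 8 proteoglycans (0.25) and 16 of 22 receptor and TGF-beta genes (0.10). None of these genes passed in soleus either. These soleus medians include HC replicate 5. In both tissues the genes were measured in the same mice and are not independent.

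**Figure D4:**
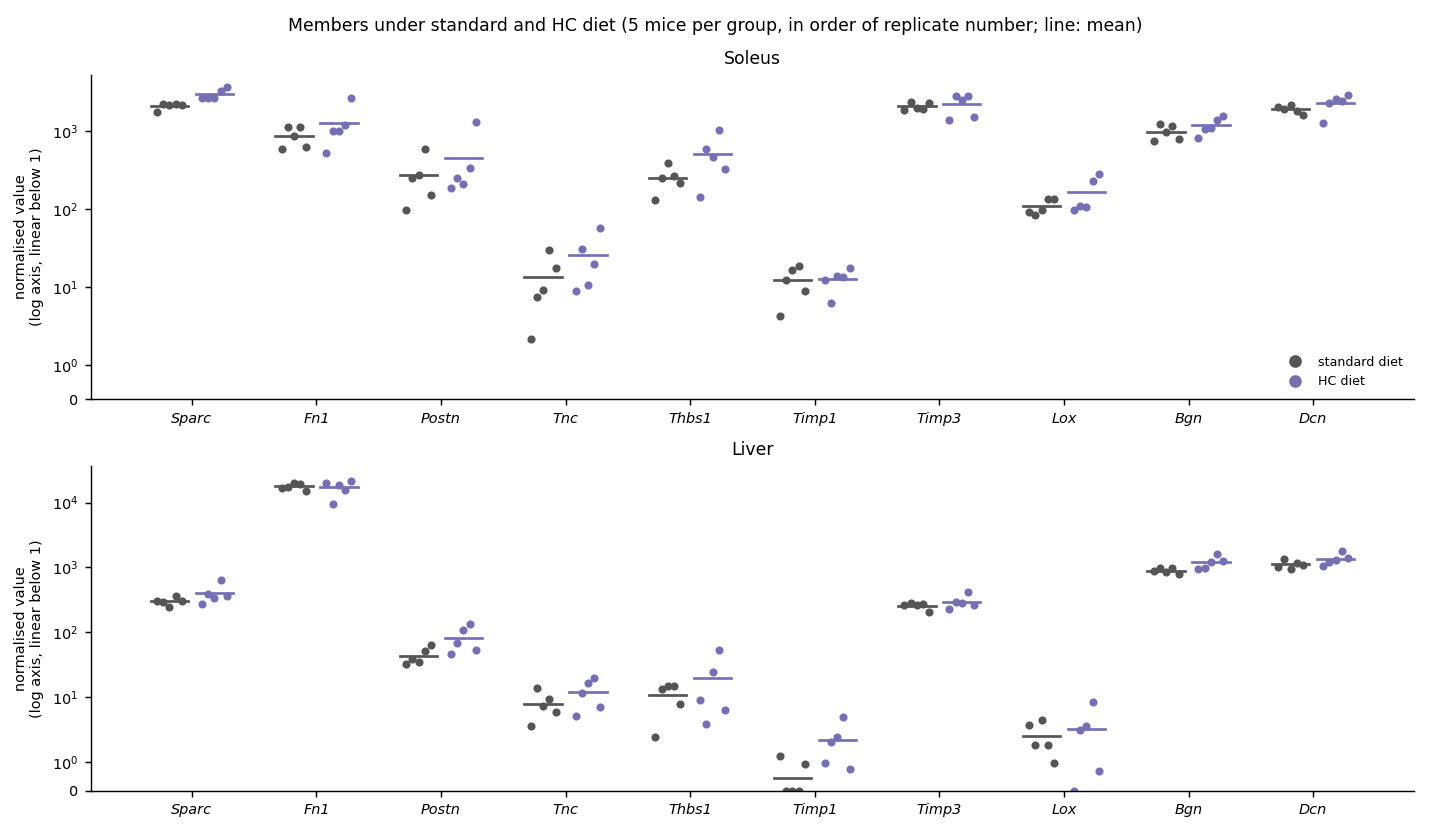
Normalised value of each member (y axis, log scale that is linear below 1) in soleus and liver of mice on standard or HC diet, with 1 point per mouse in order of replicate number and a line at the group mean. Sparc in soleus is the member whose diets do not overlap (1765 to 2256 against 2677 to 3690), and the fourth HC liver is the highest for 9 members.

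In AML12 cells the comparison of siAcly with siC shows what loss of Acly itself went with, in a line that lacks Lox and has next to no Dcn, Bgn or Timp3. Over the 12 libraries of each siRNA, 2 of the 6 members tested passed, against 4.77% of all genes. Fn1 was lower by 0.50 on the log2 scale (difference -0.50, standard error 0.11, limma adjusted p = 0.0104). Its lowest, median and highest values were 17587, 22120.4 and 33401 in siC and 11669, 16464 and 20497 in siAcly libraries, with means of 23301 ± 4591 and 16416 ± 2865 (SD, n = 12), and the ranges overlapped. Timp1 was higher by 0.60 (standard error 0.12, adjusted p = 0.00950), at 1129 ± 241 in siC and 1717 ± 401 in siAcly (SD, n = 12), with a lowest, median and highest value of 832, 1062 and 1590 and of 1107, 1655 and 2545. Sparc, at 3577 ± 465 and 4543 ± 889 (SD, n = 12), had a difference of 0.33 (standard error 0.11, adjusted p = 0.0849).

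The AML12 libraries came in 2 series of library numbers, of which the second (81 to 87) holds no untreated siC library. Within the first series the Fn1 difference was -0.56 (9 siC and 8 siAcly libraries) and within the second -0.40 (3 and 4), and the Timp1 difference was 0.63 and 0.39. Timp1 was higher in the second series in siC cells too, at 1497 ± 80.8 (SD, n = 3) against 1006 ± 102 (SD, n = 9). With the series as a covariate both members passed (Fn1 -0.52, adjusted p = 0.00267, and Timp1 0.56, adjusted p = 0.000519), with 11.7% of all genes, and both passed without the 2 libraries with a doubted label (adjusted p = 0.0213 and 0.0292), with 2.41%. Thbs1 stood with the series as well, at 61.8 to 75.5 in siC and 127 to 193 in siAcly libraries of the second series, against 7.79 to 38.4 and 16.3 to 126 in the first.

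In untreated cells alone, Fn1 was 19499, 33401 and 22329 with siC and 17168, 15928 and 12211 with siAcly. The last of these siC libraries is one with a doubted label. Timp1 was 936, 1133 and 1015 with siC and 2257, 1503 and 2545 with siAcly. Both members separated the groups, 2 of 6 against 23.9% of all genes. The differences were -0.71 (standard error 0.21, adjusted p = 0.115) for Fn1 and 1.00 (standard error 0.25, adjusted p = 0.0818) for Timp1, and neither passed, while 0.187% of all genes did. Sparc was 3150, 4137 and 3586 with siC and 4826, 5623 and 2842 with siAcly, and the groups overlapped (0.24, standard error 0.22, adjusted p = 0.561).

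Whether inhibiting ACLY with a compound moved the members was tested against untreated cells. None of the 6 members passed with HC, SB or Bemp, in siC or in siAcly cells (0% of all genes in each of the 6 comparisons, with 42 to 1648 of 12296 genes at an unadjusted p under 0.05). For Fn1 the differences from untreated siC cells were -0.10 with HC (95% interval -0.54 to 0.34), -0.05 with SB (-0.49 to 0.39) and -0.22 with Bemp (-0.65 to 0.22), each with a standard error of 0.21. These comparisons share the untreated libraries, of which siC replicate 3 has a doubted label, as does Bemp replicate 1. Fn1 was 23948, 19657 and 25152 with HC, 17587, 29975 and 24942 with SB and 19906, 21912 and 21305 with Bemp, all 3 groups overlapping with untreated cells. With Bemp, Thbs1 was 38.4, 34.9 and 61.8 against 27.6, 18.1 and 7.79, a difference of 1.40 (standard error 0.91, adjusted p = 0.927), and was the 1 of 6 members that did not overlap, against 9.08% of all genes. Its lowest untreated library and one of its Bemp libraries are those with a doubted label, and its highest Bemp library (61.8) is of the second series, which holds no untreated siC library. With the series as a covariate the Thbs1 difference was 0.81 (standard error 0.60, adjusted p = 0.930).

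For Sparc the siC differences were -0.01, 0.0036 and -0.08, and for Timp1 they were 0.15, 0.14 and 0.15, in the order HC, SB and Bemp. They rest on the same libraries, those with a doubted label included. The highest Timp1 library of each of these groups (1590, 1441 and 1461) is of the second series. That series holds no untreated siC library, and Timp1 was higher in it. The other libraries of these groups lay at 832 to 1116, against 936 to 1133 in untreated siC cells. In siAcly cells Fn1 was 14730, 14160 and 18526 with HC, 19308, 20497 and 19862 with SB and 11669, 16434 and 16495 with Bemp. The SB libraries were all above the untreated siAcly libraries, with a difference of 0.41 (standard error 0.21, adjusted p = 0.396), and 1 of 6 members did not overlap there against 16.7% of all genes. With HC the Fn1 difference was 0.07 and with Bemp -0.03. Sparc differed from untreated siAcly cells by 0.21 under HC and by 0.03 under both SB and Bemp (standard error 0.22), and Timp1 by -0.28 with HC and -0.34 with Bemp (standard error 0.25). Timp1 with SB was 1330, 1107 and 1873, a difference of -0.55 (standard error 0.25, adjusted p = 0.351), and overlapped with untreated siAcly cells.

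Of the other matrix lists over all siAcly and siC libraries, Pcolce (0.58), which codes for an enhancer of procollagen processing, rose as 1 of 14 cross-linking genes, while 2.73% of all genes rose. Adamts9 (-1.19) fell as 1 of 12 proteases, while 2.03% of all genes fell. Of 19 genes of matrix receptors and of TGF-beta ligands and receptors 2 fell, the ligand gene Tgfb2 (-0.36) and the receptor gene Tgfbr1 (-0.67).

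**Figure D5:**
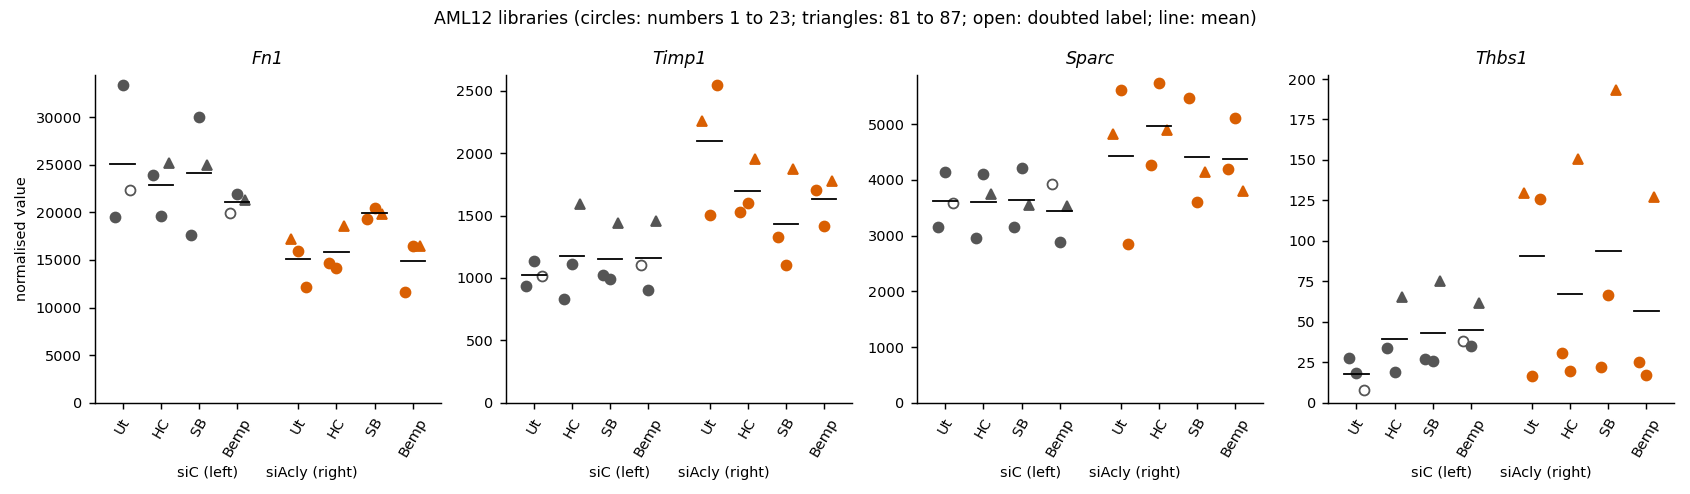
Normalised value (y axis, from 0) of Fn1, Timp1, Sparc and Thbs1 in the 24 AML12 libraries by siRNA and inhibitor, with circles for the first and triangles for the second series of library numbers, open symbols for doubted labels and the mean as a line. Fn1 runs from 17587 to 33401 in siC and from 11669 to 20497 in siAcly cells, and Timp1 from 832 to 1590 and from 1107 to 2545.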

How the data were processed

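Sequencing libraries of liver, soleus, gastrocnemius and AML12 cells were grouped by their labels (replicates of gastrocnemius and AML12 were numbered in accession order). Per the study's methods and labels, the authors trimmed reads with FASTQ Toolkit 1.0.0, aligned them with RNAseq Alignment 2.0.2 (STAR) to mm10, and normalised gene counts by the median of ratios in an Illumina package of DESeq2 (1.1). The values deposited by the authors are these normalised values (unit: signal), not raw counts. Whole reads could not be recovered, so no count model was used, and depth was estimated as the library sum over its most frequent value under 2.

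Differences were fitted across all genes by limma 3.58.1 in R 4.3.3 with a mean-variance trend on log2(value + 1), over all groups of a table, for genes that reached 10 in no fewer libraries than the smallest group holds, with Benjamini-Hochberg adjusted p under 0.05 as the threshold. The authors tested with DESeq2, which needs counts. Single members were also compared by an exact two-sided permutation test, between diets in soleus and liver and between CTX-HC and CTX at 2 and 30 days. All 10 members are given in each table, with statistics for those that passed and, where fewer than 3 did, the 3 of highest mean. Statistics of some other members are given outside this rule, with their values known. Among them are Timp1 at 2 days after injury, Thbs1 with Bemp in siC cells and Postn in liver. Other lists are given by counts and at most 2 rises and 2 falls, and the results of one list are not reported here. Members and lists were chosen with earlier results of these data known. Alternatives were no filter, a pseudocount of 0.5 or 5, quantile normalization, only the 2 groups compared, a library-number covariate, a replicate block and leaving out each library. Those without libraries that stood apart or had a doubted label were added after the data were seen. In soleus and liver the equal replicate numbers did not pair the mice: the correlations of deviations were -0.11 to 0.39 in soleus and 0.03 to 0.08 in liver, and no libraries were duplicates. The interval of each difference is at 95%.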

Additional observations from a re-analysis of the deposited data

Results flagged for a closer look

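Of 40 groups of 5 mice (10 members, 2 diets, liver and soleus), Dixon's test at its 95% critical value set 2 single mice apart. Chance alone does so in about 1 in 20 groups. Sparc in soleus on STD was 1765 in replicate 1, the lowest, against 2172 to 2256 in the other 4 mice. Without that mouse the HC difference of Sparc was 0.42 (limma adjusted p = 1.00). Postn in soleus on HC was 1305 in replicate 5, the highest, against 186 to 335 in the other 4 mice. The cause was not tested in either case.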

How the results depend on the processing

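Of 282 counts of members that passed under an alternative, 257 stayed within 1.5 times of the reported count. Most of these were 0 both as reported and under the alternative, which was taken as unchanged. The share therefore says little about the members that passed. For CTX-HC at 2 days against uninjured muscle (2 reported) the count was 5 with quantile normalization (16.5% of all genes passed), 8 with only the 2 groups compared (30.6%), 1 with the library-number covariate (1.65%), 8 without the 2 (31.8%) and 8 without the 3 (33.7%) libraries that stood apart, and 0 to 4 when a library was left out (0.235% to 15.3%). For CTX-HC at 30 days against 2 days (3 reported) it was 0 with only the 2 groups compared (0.164%), 7 without the 2 (37.6%) and 7 without the 3 (39.1%), and 0 to 5 when a library was left out (1.14% to 36.2%). For CTX at 30 days against 2 days (0 reported) it was 2 without the 2 (5.79%), 5 without the 3 (11.2%) and 0 to 1 when a library was left out, the 1 being Dcn without CTX 30 days replicate 2 (2.37%). For CTX at 2 days against uninjured (0 reported) it was 3 without the 3 (3.73%). For siAcly against siC in untreated cells (0 reported) it was 1 with the library-number covariate (1.53%) and 0 to 1 when a library was left out (2.44% where it was 1), Timp1 each time, and over all AML12 libraries (2 reported) it was 2 to 3. All other counts stayed at 0.

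Of 860 values of single members under an alternative, 767 kept their direction and their side of the threshold, 24 lost a call, 10 gained one, 38 near 0 changed sign by less than 1 standard error with no call on either side, and 21 reversed, none of them called. When a library was left out, Sparc at 30 days on CTX against uninjured muscle ranged from -0.0071 (without CTX 30 days replicate 1, and so also without the 2 or the 3 libraries) to 1.05. Between CTX-HC and CTX at 30 days Sparc ranged from -0.67 to 0.39 and Fn1 from -1.05 to 0.47 (the highest without CTX 30 days replicate 1), and Timp3 from -0.38 to 0.28 (without CTX-HC 30 days replicate 3), while without the 2 or the 3 Fn1 was 0.31 and Timp3 0.33. Sparc between 30 and 2 days on CTX ranged from -0.43 (without CTX 30 days replicate 1, also without the 2) to 0.63, and was -0.58 without the 3. Fn1 in liver ranged from -0.19 to 0.097 (without HC replicate 2). In siC cells Fn1 ranged from -0.26 to 0.13 with HC, from -0.22 to 0.18 with SB (0.16 without SB replicate 1) and from -0.38 to 0.011 with Bemp, the highest without untreated replicate 2. In siAcly cells Sparc ranged from -0.078 to 0.41 with HC, from -0.26 to 0.23 with SB and from -0.27 to 0.23 with Bemp, the lowest without untreated replicate 3. The cause was not tested. With a replicate block, 0 members passed in liver and 0 in soleus, as without it. The Sparc difference in soleus stayed 0.49 (adjusted p = 0.506), and 1 of 5 soleus and 0 of 5 liver HC mice correlated best with its own number.

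The data limit what can be read for members near 0. Raw reads were not used here, groups of 3 are small, and a few libraries set the spread in gastrocnemius. Replicate numbers do not mark shared animals across diets.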
